A study of Mus musculus with 16 samples.

Results

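The nuclear genes that encode the subunits of the mitochondrial respiratory chain and ATP synthase were followed through sorted mouse DN3 thymocytes. Members were taken by symbol alone, as every gene whose symbol begins with Nduf, Uqcr, Atp5 or Cox4 to Cox8, with Sdha, Sdhb, Sdhc, Sdhd and Cyc1 added. The rule found 93 of the 22114 genes listed. Of these, 44 belong to complex I, 4 to complex II, 9 to complex III, 20 to complex IV and 16 to complex V. The prefixes also bring in 10 assembly, joining or coupling factors (7 Ndufaf genes, Atp5sl, Atp5s and Cox7a2l) and 8 tissue isoforms of complex IV subunits, which were counted with the complex they serve. Enough reads to be tested were present for 88 members in either count table. Cox7b2, Cox8b, Cox8c and Ndufa4l2 failed in both tables, Cox6a2 in the GFP table and Cox4i2 in the genotype table.

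DN3 cells are immature CD4-CD8-CD25+CD44- T-cell progenitors, and in mice that carry the Lmo2 oncogene they hold the pre-leukemic stem cells. In the first experiment, GFPhi and GFPlo DN3 cells were sorted from H2B-GFP;Lmo2Tg mice 2 weeks after a doxycycline pulse of 6 weeks, with 3 libraries per group. Both groups therefore carry the Lmo2 transgene, the H2B-GFP allele and the doxycycline treatment. GFPhi cells kept the histone label and so divided little during the chase, whereas GFPlo cells diluted it. In the second experiment, total DN3 cells came from wild-type mice (WT, 3 libraries), p21-/- mice (2 libraries), Lmo2Tg mice (2 libraries) and Lmo2Tg;p21-/- mice (2 libraries). For global expression the study's methods describe RNA of sorted cells pooled from 3 to 5 mice of 6 weeks of age, and the series describes the GFP replicates as pooled. For the GFP sorts, however, the study's legend on their expression gives mice of 2 months of age. All lines were on a C57BL/6J background (C57BL/6 in the labels), Lmo2 was driven in the T lineage by the CD2 regulatory sequences, and the p21-/- mice lack p21 (Cdkn1a). Bulk RNA cannot tell fewer cells with a transcript from less RNA per cell.

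Oxidative phosphorylation is the route by which mitochondria turn the energy of NADH and succinate into ATP. Complexes I and II pass electrons to ubiquinone, complex III passes them to cytochrome c and complex IV hands them to oxygen, while complexes I, III and IV pump protons that drive the rotor of complex V. The subunits of complex II are all nuclear, and each of the other complexes joins nuclear subunits with a few made from mitochondrial DNA. Quiescent stem cells are known to rely less on this route than dividing progenitors.

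Library totals were 26.9 to 31.1 M counts in the GFP table and 13.9 to 16.8 M in the genotype table. Cdkn1a lay at 36.5 to 49.0 CPM (counts scaled to a common library total) in WT, 14.3 and 17.7 in p21-/-, 26.3 and 32.8 in Lmo2Tg and 3.5 and 4.35 in Lmo2Tg;p21-/-. Reads of the gene thus remained in the libraries labelled p21-/-, and the part of it that the allele lacks was not checked. Lmo2 was at most 0.306 CPM in the 5 libraries without the transgene and between 41.4 and 107 in the 4 with it. The 9 DN3 markers summed to between 5070 and 7950 CPM in all 15 libraries, against at most 32.3 for 6 B-lineage, 31.5 for 5 myeloid, 79.9 for 3 stromal, 157 for 5 later thymocyte and 398 for 3 early progenitor markers. GFPhi 3 stood apart, with 285 CPM of Lmo2 against 53.8 and 29.5 in the other GFPhi libraries, and with 6.55 CPM of Cdkn1a against 35.8 and 29.9. WT 3 also stood apart: the chi-square per gene was 18.3 and 17.4 against WT 1 and WT 2, which differed by 2.64 from each other. Results that rest on these libraries are given with and without them.

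The members together took 0.962% to 1.13% of the counts in WT, 0.962% and 1.02% in p21-/-, 0.931% and 1.03% in Lmo2Tg, and 0.82% and 0.87% in Lmo2Tg;p21-/-. In the GFP table, which was counted and scaled apart, they took 0.87% to 0.953% in GFPhi and 0.88% to 0.915% in GFPlo, ranges that overlap. Per kilobase of transcript and without factors and tissue isoforms, the median level in WT was lowest for complex I (67.3 CPM per kb over 36 genes), followed by complex II (117, 4 genes), complex III (134, 9 genes), complex IV (166, 11 genes) and complex V (178, 15 genes). Complex I was lowest in all 6 groups. Atp5b, the catalytic beta subunit of ATP synthase, was highest in WT at 851 CPM per kb. Uqcrh, the hinge protein of complex III, led its complex at 270, and Cox4i1 led complex IV at 275. The lowest values, 3.43 for Ndufb4 and 7.71 for Atp5l, belong to genes that share sequence with 3 and 16 annotated pseudogenes, so that these levels are uncertain. Levels between complexes are a description, and no test was made of them.

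The isoform pairs of complex IV were led by the general form, here compared per kilobase as WT means. Cox4i1 lay at 275 CPM per kb, where Cox4i2, the lung isoform that low oxygen induces, lay at 0.142. Cox6a1 lay at 224 CPM per kb and Cox6a2, the heart and muscle form, at 1.33. For Cox7a2 and its muscle counterpart Cox7a1 the levels were 118 and 3.54 CPM per kb. Cox8a lay at 209 CPM per kb, while the muscle isoform Cox8b had reads in 1 of the 15 libraries and the testis isoforms Cox7b2 and Cox8c had none. At the smallest library total a count of 0 allows up to 0.216 CPM (3 counts, counting error only). Cox6b2, the testis isoform of subunit 6b, was the most abundant of the tissue isoforms, at 32.5 CPM per kb beside 191 for Cox6b1. Ndufa4 of complex IV lay at 240 CPM per kb and its paralog Ndufa4l2, which low oxygen induces, at 0.067.

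The GFP sorts ask whether cells that rarely divided differ in these genes from those that cycled. Of 88 members, 8 passed the test (adjusted p below 0.05 by edgeR's quasi-likelihood test, Benjamini-Hochberg over all genes), none higher and 8 lower in GFPhi. Over all genes the test called 14.8%, with 5.34% higher and 9.44% lower. The members' share was 9.09%. Their median log2 fold change was 0.02, the same as the median of 0.02 over all 11581 genes, with 55 members on the higher and 33 on the lower side. All GFPhi libraries lay above all GFPlo libraries in 12 members (13.6%, against 19.6% of all genes), and below them in 14 (15.9%, against 21.7%). Complex medians were 0.01 for complex I, 0.03 for complex II, 0.10 for complex III, 0.00 for complex IV and 0.07 for complex V.

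Of the 8 genes, 7 lie on chromosomes 2, 15 and 17, which carry 20 of the 88 members. These chromosomes have the lowest medians over all genes in this same comparison (-0.18, -0.43 and -0.15). The share of lower calls on them is therefore not independent of that choice. The study's expression analysis singled out 2 and 15 only. On chromosome 2 the call is that of Cox4i2, given below. Ndufb9 (chromosome 15, 58933756 to 58939488 in GRCm38), an accessory subunit of complex I, had 79.1, 79.6 and 80.0 CPM in GFPhi and 105, 109 and 118 in GFPlo. Its log2 fold change was -0.48 ± 0.06 (SE, adjusted p = 0.0079 by edgeR). Ndufb9 shares 15.6% of its 50-base stretches with other loci, so its level is uncertain. Ndufa6 (chromosome 15, 82350140 to 82354322), a related accessory subunit of the LYR family, had 72.7, 72.5 and 66.1 CPM in GFPhi and 97.3, 90.3 and 91.7 in GFPlo, a log2 change of -0.40 ± 0.07 (adjusted p = 0.015 by edgeR). For both genes every GFPhi library lay below every GFPlo library. Cox6c of complex IV (chromosome 15) had 63.0 to 70.1 CPM in GFPhi against 82.1 to 91.4 in GFPlo (log2 fold change -0.39). Cyc1, which carries the haem of cytochrome c1 (chromosome 15), had 134 to 150 CPM against 170 to 178 (-0.28). On chromosome 17, Ndufa7 had 52.2 to 56.1 CPM against 66.9 to 72.3 (-0.34), and Cox7a2l, counted with complex IV, had 90.0 to 96.1 against 109 to 113 (-0.26). The groups did not overlap for any of these 6 genes.

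The same chromosomes were lower for genes of every kind. Of chromosome 15 genes, 47.8% were called, 47.4% as lower, with a median log2 fold change of -0.43, beside -0.40 for its 5 members. The last of these, Atp5g2, one of 3 genes for the c subunit of the ATP synthase rotor, lay at -0.61 ± 0.25 (adjusted p = 0.15 by edgeR) on few reads (1.51 to 3.44 CPM), and it shares 38.3% of its 50-base stretches with other loci. On chromosome 2, 17.7% of genes were called and 16.3% as lower, with a median of -0.18 (members -0.08), and on chromosome 17 20.7% and 15.8%, with a median of -0.15 (members -0.25). On the other chromosomes 12.5% of genes were called, 6.0% as higher and 6.54% as lower. There 17 of 68 members were on the lower side, with a median of 0.05. Scaled without these 3 chromosomes, 29 of 68 were on that side, with a median of 0.02. In GFPlo cells, the reference group here, the study reports extra copies of the chromosomes that its expression analysis singled out. It found them with targeted probes and exome sequencing. The part that the chromosome, or its copy number, plays in the members' difference was not tested.

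**Figure D1:**
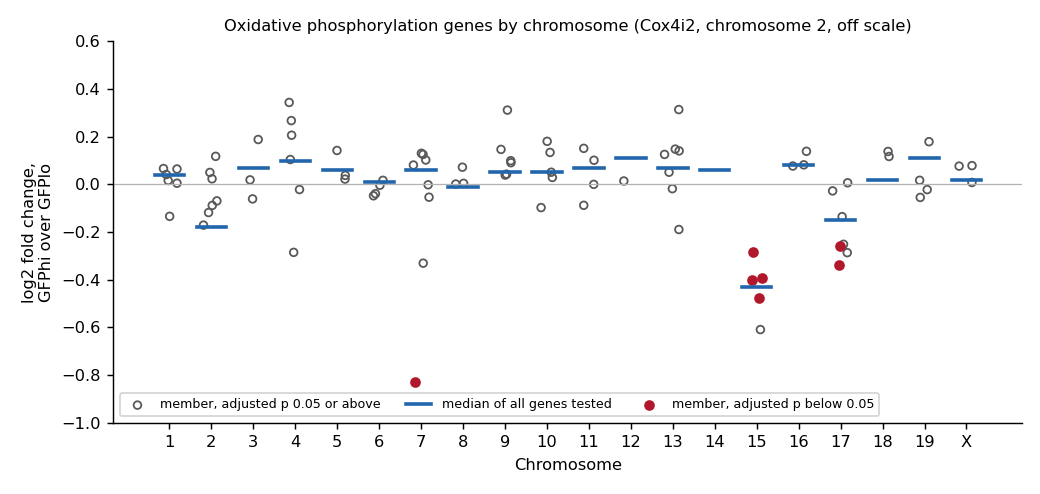
Log2 fold change of GFPhi over GFPlo (vertical axis) for each member tested, placed by chromosome (horizontal axis), with filled points for those past the test and a bar for the median of all genes tested on that chromosome. Chromosome 15 stands lowest, with 4 of its 5 members called and a median of -0.43 over its 464 genes. Cox4i2 on chromosome 2 is off the scale at -3.56.

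Cox6b2 (chromosome 7, 4751792 to 4753094) was the only gene called outside these 3 chromosomes. It had 21, 22.3 and 20.5 CPM in GFPhi and 38.2, 38.1 and 37.0 in GFPlo, a log2 fold change of -0.83 ± 0.07 (adjusted p = 0.0024 by edgeR). Its general counterpart Cox6b1, on the same chromosome, had 109 to 123 CPM in GFPhi and 103 to 110 in GFPlo (0.13 ± 0.07, adjusted p = 0.24). Cox4i2 (chromosome 2, 152754173 to 152765037) had 0.11, 0.136 and 0.223 CPM in GFPhi and 2.22, 1.89 and 1.58 in GFPlo. That is 13 reads against 163, a ratio of 12.2-fold lower (95% interval 6.91 to 23.3, exact, counting error only), and the fitted log2 fold change was -3.56 ± 0.36 (adjusted p = 0.0042 by edgeR). It passed the filter on low counts through the GFPlo libraries, where it is high, so its call is not independent of that filter. Of the other 7 calls, that of Cox6b2 held when any 1 library was left out.

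**Figure D2:**
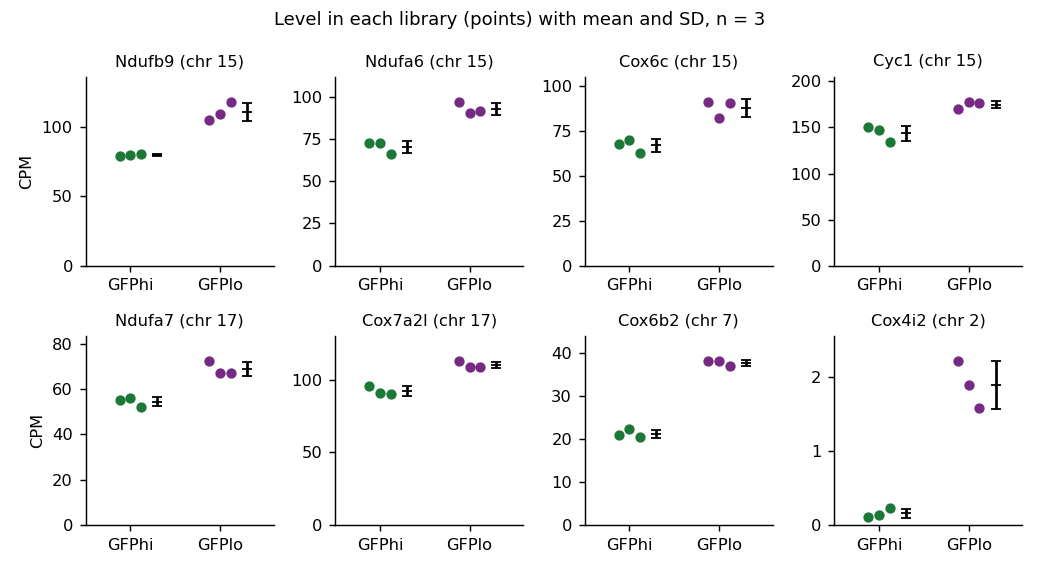
CPM (vertical axis, from 0) of the 8 members past the test in each GFPhi and GFPlo library (points), with the mean and SD of 3 libraries (bars). For every gene the 3 GFPhi points lie below the 3 GFPlo points, by the widest ratio for Cox4i2.

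The count in this comparison depends on GFPhi 3. Without it, 22 of 89 members passed, 13 higher and 9 lower, where 41.2% of all genes did, 19.5% as higher and 21.7% as lower. Without GFPhi 1, GFPhi 2, GFPlo 1, GFPlo 2 or GFPlo 3 the counts were 3, 5, 3, 2 and 3, where 5.55%, 7.89%, 6.96%, 1.98% and 3.4% of all genes were called. With the correction for transcript length it was 8, with 14.6% of all genes called and a median of 0.03. Of the 13 that were higher without GFPhi 3, 6 belong to complex V, among them Atp5a1 and Atp5b, the alpha and beta subunits of its catalytic head. Atp5b had 1470, 1490 and 1430 CPM in GFPhi and 1260, 1290 and 1320 in GFPlo, so the groups did not overlap (0.18 ± 0.05, adjusted p = 0.073 by edgeR with all libraries, and 0.20, adjusted p = 0.018, without GFPhi 3). Among the core subunits of complexes I and II, Ndufs1, Ndufs7, Ndufv1, Sdha, Sdhb and Sdhc lay between -0.02 and 0.06 and Sdhd at 0.10. Ndufs8 lay at 0.18 ± 0.06 (adjusted p = 0.11 by edgeR), and Ndufs3 on chromosome 2 and Ndufv2 on chromosome 17 at -0.12 and -0.25, none of them called. Mki67, a marker of proliferation, had 1050, 1210 and 654 CPM in GFPhi and 949, 1260 and 1510 in GFPlo. All 5 proliferation markers lay on the lower side in GFPhi, at -0.39 to -0.3 with a median of -0.36, and 0 were called. The early progenitor markers summed to 146 to 230 CPM in GFPhi and 360 to 398 in GFPlo, and the B-lineage markers to 7.86 to 32.3 and 1.11 to 1.89. Of the 2 early progenitor markers tested, 1 was lower (log2 fold change -1, called) and 1 lay higher (0.34, not called). The part of these cell types and of proliferation in the members' values was not tested.

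In the genotype table the members moved largely together from library to library. Relative to the mean of the 9 libraries, the median member lay at -0.01, 0.02 and 0.26 (log2) in WT 1, WT 2 and WT 3, at -0.02 and 0.06 in p21-/-, at -0.06 and 0.08 in Lmo2Tg, and at -0.19 and -0.13 in Lmo2Tg;p21-/-. In WT 3 all 5 complexes were high, from 0.24 for complex I to 0.29 for complex III. In Lmo2Tg;p21-/- 1 all 5 were low, from -0.16 for complex IV to -0.31 for complex III. The 7 mitochondrially encoded subunits that were tested were not high in WT 3, at -0.06, and lay at 0.13 and 0.16 in Lmo2Tg. In Lmo2Tg;p21-/- they were low like the nuclear members, at -0.12 and -0.10.

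**Figure D3:**
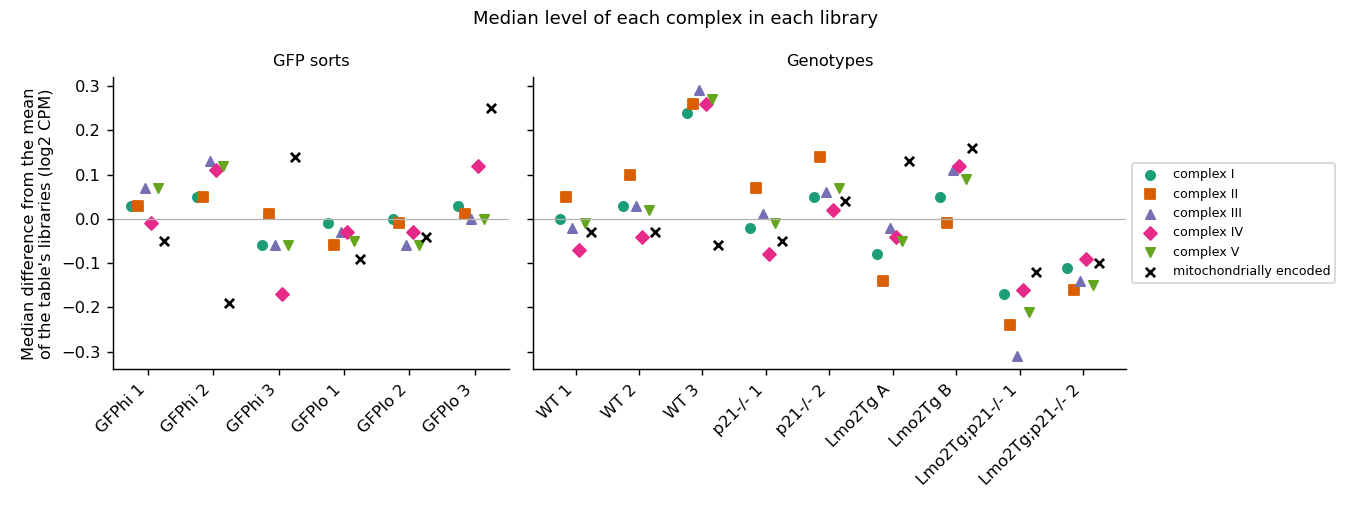
Median difference of the members of each complex, and of 7 mitochondrially encoded subunits (crosses), from the mean of the libraries in the same table (log2 CPM, vertical axis) for each library (horizontal axis). WT 3 is high for all 5 nuclear complexes, and both Lmo2Tg;p21-/- libraries are low.

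Transcript length moved with these values. The median member transcript is 801 bases long against 2827 for all genes tested, and 73 of 88 members fall in the shortest of 5 equal length classes of all genes. In WT 3 the median gene of the shortest class lay at 0.18 and that of the longest at -0.18. In Lmo2Tg;p21-/- the shortest class lay at -0.07 and -0.05 and the longest at 0.09 and 0.05. Mitochondrial ribosomal protein genes, also short, lay at 0.28 in WT 3 and at -0.19 and -0.12 in Lmo2Tg;p21-/-. The part of length in the members' values is addressed only by the fits with a length correction, given beside each comparison.

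**Figure D4:**
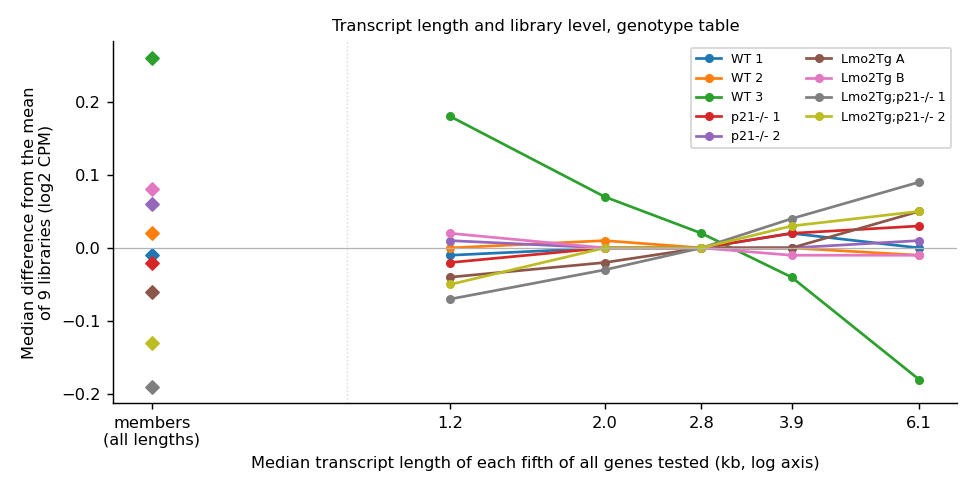
Median difference from the mean of the 9 genotype libraries (log2 CPM, vertical axis) for each of 5 classes of all genes by transcript length (circles, log axis in kb) and for the members of all lengths (diamonds), with 1 colour per library and a dotted line at the median length of the members. WT 3 falls from 0.18 in the shortest to -0.18 in the longest class, and its members stand at 0.26.

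The comparison of Lmo2Tg;p21-/- with Lmo2Tg asks what loss of p21 does in cells that carry the oncogene. The members lay mostly on the lower side, by small amounts: 74 of 88 had a negative fold change, with a median of -0.18 (log2), against 47.3% of all genes and a median of 0.02. The test by edgeR called 4 of 88 (4.55%), 2 higher and 2 lower, where 6.73% of all genes did (3.42% higher and 3.31% lower). The 9 members of complex III lay lowest, all of them negative, with a median of -0.32. Complex V had 15 of 16 negative and a median of -0.25, complex IV -0.19 (13 of 15), complex I -0.15 (34 of 44) and complex II -0.13 (3 of 4). In 60 members (68.2%) both Lmo2Tg;p21-/- libraries lay below both Lmo2Tg libraries, which holds for 25.7% of all genes, and in 7 (7.95%) they lay above, against 29.0%. With the correction for length the median was -0.13 and again 74 were negative. It ranged from -0.12 without Lmo2Tg library B to -0.24 without Lmo2Tg library A. The early progenitor markers summed to 142 and 217 CPM in Lmo2Tg and 219 and 286 in Lmo2Tg;p21-/-, and proliferation markers to 2570 and 3080 and to 2050 and 2720. Of the 2 early progenitor markers tested, 1 lay at 0.53 and 1 at -0.04 (log2), neither called. The part of these cell types and of proliferation in the members' values was not tested here either.

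The 4 genes past the test went in both directions. Uqcrfs1, the Rieske iron-sulphur protein of complex III (chromosome 13, 30540308 to 30545362), had 116 and 130 CPM in Lmo2Tg and 85.5 and 99.6 in Lmo2Tg;p21-/-. Its log2 fold change was -0.41 ± 0.11 (adjusted p = 0.042 by edgeR). Uqcrh (chromosome 4, 116066965 to 116075071) had 158 and 172 CPM in Lmo2Tg and 137 and 128 in Lmo2Tg;p21-/-, with -0.32 ± 0.08 (adjusted p = 0.043 by edgeR). In both genes Lmo2Tg was the highest of the 4 genotypes on average, since WT had 108 to 121 CPM of Uqcrfs1 and 143 to 152 of Uqcrh. Ndufb2, an accessory subunit of complex I (chromosome 6, 39592574 to 39603382), had 8.80 and 8.07 CPM in Lmo2Tg and 13.6 and 11.9 in Lmo2Tg;p21-/-, with 0.60 ± 0.15 (adjusted p = 0.033 by edgeR). Ndufab1, the mitochondrial acyl carrier protein that also sits in complex I (chromosome 7, 122085403 to 122101886), had 29.3 and 25.9 CPM in Lmo2Tg and 39.8 and 37.6 in Lmo2Tg;p21-/-, with 0.49 ± 0.12 (adjusted p = 0.031 by edgeR). For these 2 genes the Lmo2Tg libraries were the low ones, as WT had 11.1 to 12 and 33.8 to 39.8 CPM and p21-/- 11.9 to 12.2 and 34.0 to 38.6. Exons of both overlap another annotated gene on the opposite strand, those of Ndufb2 also 1 on the same strand, and whether reads were counted by strand is not given in the sources used here. None of the 4 calls held when each library was left out in turn, and counts were 0 without Lmo2Tg library B or Lmo2Tg;p21-/- 1, 1 without Lmo2Tg;p21-/- 2 and 2 without Lmo2Tg library A. A fit on these 4 libraries alone called none, with 36 members at an unadjusted p below 0.05. DESeq2 called 6 and limma-voom 3. The shares of all genes are not given beside these counts, which are not read as results about the members.

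The promoter windows of these 4 genes are shown so that the genes that fell (Uqcrh and Uqcrfs1) can be set beside those that rose. Each runs 5′ to 3′ on the gene's strand, from 250 bases before to 50 after the RefSeq start (build GRCm38.p6): Uqcrh at chr4:116075021-116075320 (minus strand), Uqcrfs1 at chr13:30545267-30545566 (minus), Ndufab1 at chr7:122101799-122102098 (minus) and Ndufb2 at chr6:39592315-39592614 (plus). Capitals mark a match to 1 of 3 motifs known from mitochondrial gene promoters, searched on both strands: a 10-base NRF1 motif, CCGGAAG for the ETS family that includes GABPA, and AAGATGGC for YY1.
Uqcrh: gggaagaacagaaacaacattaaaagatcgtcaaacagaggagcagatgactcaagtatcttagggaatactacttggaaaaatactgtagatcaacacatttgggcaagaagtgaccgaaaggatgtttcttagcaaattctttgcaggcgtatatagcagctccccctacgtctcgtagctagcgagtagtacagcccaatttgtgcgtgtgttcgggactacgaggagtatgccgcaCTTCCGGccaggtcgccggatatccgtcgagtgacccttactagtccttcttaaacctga
Uqcrfs1: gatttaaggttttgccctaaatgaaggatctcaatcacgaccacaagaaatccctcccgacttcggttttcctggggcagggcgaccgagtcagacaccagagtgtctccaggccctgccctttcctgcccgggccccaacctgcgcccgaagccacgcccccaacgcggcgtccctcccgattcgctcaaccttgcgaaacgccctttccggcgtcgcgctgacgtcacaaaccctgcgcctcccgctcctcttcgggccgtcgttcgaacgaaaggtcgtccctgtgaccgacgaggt
Ndufab1: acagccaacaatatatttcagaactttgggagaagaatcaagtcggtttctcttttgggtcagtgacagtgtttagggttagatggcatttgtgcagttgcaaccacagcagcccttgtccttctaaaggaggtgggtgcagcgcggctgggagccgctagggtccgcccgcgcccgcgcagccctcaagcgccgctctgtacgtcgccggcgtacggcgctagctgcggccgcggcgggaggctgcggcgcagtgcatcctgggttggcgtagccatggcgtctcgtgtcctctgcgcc
Ndufb2: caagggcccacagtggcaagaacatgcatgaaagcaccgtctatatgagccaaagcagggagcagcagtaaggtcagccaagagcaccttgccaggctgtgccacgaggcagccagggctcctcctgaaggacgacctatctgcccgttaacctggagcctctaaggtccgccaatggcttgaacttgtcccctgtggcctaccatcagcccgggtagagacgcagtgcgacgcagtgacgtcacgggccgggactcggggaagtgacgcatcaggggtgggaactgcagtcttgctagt
Only the window of Uqcrh holds a match, to the ETS motif on the opposite strand. Of the 93 members, 76 had a RefSeq window, and 41 of these (53.9%) held at least 1 of the motifs, against 16.4% of the windows of all 27025 genes. The NRF1 motif stood in 19 of the members (25%, against 5.19%), the ETS motif in 17 (22.4%, against 9.93%) and the YY1 motif in 11 (14.5%, against 3.19%). The background includes genes of every kind, and a match in these letters is a description, not a bound site.

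**Figure D5:**
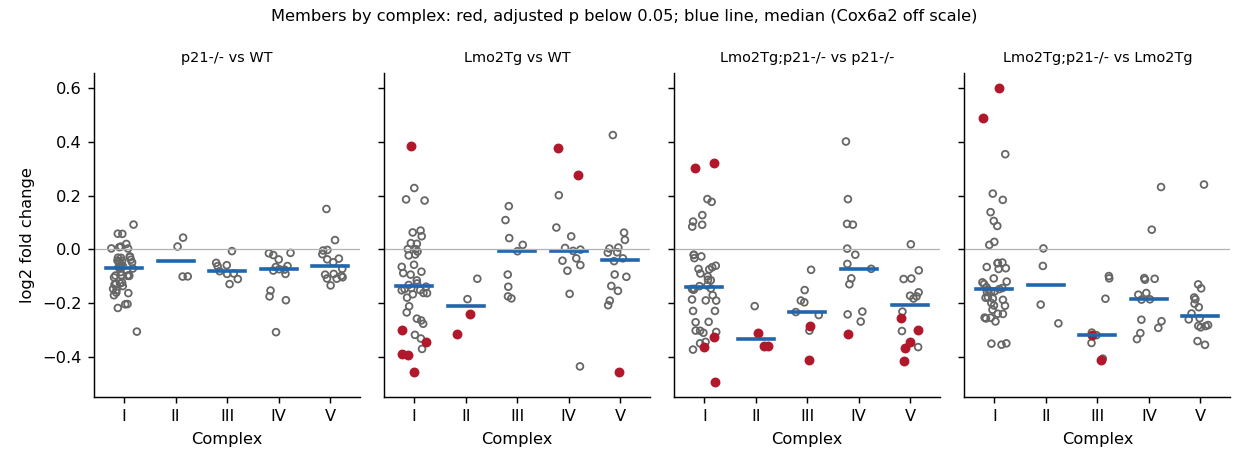
Log2 fold change (vertical axis) of each member tested by complex (horizontal axis) in the 4 genotype comparisons, with filled points past the test and a bar for the median. Complex III stands lowest in Lmo2Tg;p21-/- against Lmo2Tg, at -0.32, and Cox6a2 is off the scale.

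Against WT, the Lmo2Tg cells showed changes in both directions. Of 88 members 11 passed the test by edgeR (12.5%), 3 higher and 8 lower, where 36.8% of all genes passed, 19.7% as higher and 17.1% as lower. The median was -0.09. Both Lmo2Tg libraries lay below all WT libraries in 24 members (27.3%, against 31.0% of all genes) and above them in 8 (9.09%, against 29.9%). Among the complexes, complex II was lowest with all 4 subunits negative and a median of -0.21. Sdha, the flavoprotein that oxidises succinate, had 357, 360 and 360 CPM in WT and 291 and 318 in Lmo2Tg (-0.24 ± 0.08, adjusted p = 0.03 by edgeR), and the groups did not overlap. Sdhc, a membrane anchor of the complex, had 91.8 to 106 CPM in WT and 73.0 and 82.0 in Lmo2Tg (-0.31 ± 0.09, adjusted p = 0.018 by edgeR). Complex I contributed 5 of the 8 lower genes: Ndufb2 (-0.46) and Ndufab1 (-0.39), whose levels are above, the assembly factor Ndufaf7 (-0.39), Ndufa12 (-0.34) and the core iron-sulphur subunit Ndufv2 (-0.30). The eighth was Atp5s, a coupling factor of ATP synthase, with 8.03 to 8.77 CPM in WT and 6.73 and 5.40 in Lmo2Tg (-0.46 ± 0.16, adjusted p = 0.047 by edgeR).

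The 3 higher genes were Atp5sl, Cox7c and Cox6c. Atp5sl, a complex I assembly factor despite its symbol, had 34.3 to 34.7 CPM in WT and 47.7 and 42.1 in Lmo2Tg (0.38 ± 0.09, adjusted p = 0.0072 by edgeR). Cox7c of complex IV had 64.9, 65.5 and 74.5 CPM in WT and 87.6 and 90.0 in Lmo2Tg (0.38 ± 0.09, adjusted p = 0.0047 by edgeR), and was the 1 call of the 11 that held with any 1 library left out. It shares 22.1% of its 50-base stretches with other loci, 3 pseudogenes among them, so its level is uncertain. Cox6c had 92.4 to 113 CPM in WT and 120 and 123 in Lmo2Tg (0.28 ± 0.09, adjusted p = 0.033 by edgeR). The direction of the group as a whole rested on WT 3: without it the median was -0.01, with 11 calls of which 7 were higher and 4 lower and 32.4% of all genes called. With the length correction the median was -0.02, and 17 members passed, 9 higher and 8 lower, where 39.4% of all genes passed. Counts were 3 without Lmo2Tg library A, 5 without Lmo2Tg library B and 6 without WT 2, where 23.7%, 28.9% and 30.7% of all genes were called. Of the DN3 markers 6 of 9 were lower and 1 higher in Lmo2Tg (median -0.55), with summed levels of 6700 to 6920 CPM in WT and 5070 and 5740 in Lmo2Tg. Both early progenitor markers tested were higher, at 70.7 to 93.7 CPM in sum in WT and 142 and 217 in Lmo2Tg, and the stromal markers summed to 48.6 to 57.5 CPM in WT and 19.1 and 19.9 in Lmo2Tg. Of the 2 stromal markers tested, 1 was lower (-1.46, called) and 1 lay higher (0.48, not called). The part of all these markers in the members' values was not tested.

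Between Lmo2Tg;p21-/- and p21-/- cells, which differ by the transgene on a p21-deficient background, 17 of 88 members passed the test by edgeR (19.3%), 2 higher and 15 lower, where 31.1% of all genes passed, 16.5% higher and 14.6% lower. The median was -0.17 against 0.00 for all genes, and 74 members were negative. All 5 proliferation markers were lower (median -0.53), at 3170 and 3600 CPM in sum in p21-/- and 2050 and 2720 in Lmo2Tg;p21-/-. Of the DN3 markers 6 of 9 were lower and 1 higher (median -0.51), at 6600 and 7090 CPM against 5340 and 5520, and their part in the members' values was not tested. This comparison shares the Lmo2Tg;p21-/- libraries with the one above. Complex II was lowest at -0.33, with Sdha (-0.31), Sdhb (-0.36) and Sdhd (-0.36) past the test. Sdhb, the iron-sulphur subunit, had 137 and 138 CPM in p21-/- and 98.8 and 116 in Lmo2Tg;p21-/-. Complex V, at a median of -0.21, had 5 calls. Atp5b had 1540 and 1640 CPM in p21-/- and 1100 and 1290 in Lmo2Tg;p21-/- (-0.41 ± 0.12, adjusted p = 0.019 by edgeR). Atp5c1, the rotating gamma stalk, had 284 and 298 CPM against 219 and 232 (-0.37 ± 0.09, adjusted p = 0.0096 by edgeR). Atp5o, the peripheral stalk subunit OSCP, lay at -0.34, Atp5a1 at -0.30 and Atp5f1 at -0.25. 

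In complex I, 5 members were called. Ndufv2 (-0.36), Ndufa9 (-0.32) and the assembly factor Ndufaf2 (-0.49) were lower, while Ndufa6, at 51.2 and 52.6 CPM in p21-/- and 66 and 61.9 in Lmo2Tg;p21-/-, was higher (0.30 ± 0.09, adjusted p = 0.026 by edgeR). The other higher gene was again Atp5sl (0.32 ± 0.10, adjusted p = 0.032 by edgeR). In complex III, Uqcr11 (-0.41) and Uqcrb (-0.29) were lower, and in complex IV Cox4i1 (-0.31). Cox6a2 is 1 of the 15 lower genes, with 1.29 and 1.01 CPM in p21-/- and 0.214 and 0.0604 in Lmo2Tg;p21-/-. That is 38 reads against 4, 8.78-fold lower (95% interval 3.16 to 33.9, exact, counting error only), and the gene passed the filter through the libraries where it is high, so its call is not independent of that filter. In 60 members (68.2%) the groups did not overlap with Lmo2Tg;p21-/- lower, against 35.4% of all genes, and in 9 (10.2%) with Lmo2Tg;p21-/- higher, against 35.5%. With the length correction 24 passed, 4 higher and 20 lower, at a median of -0.12, where 34.7% of all genes passed. The count was 1 without p21-/- 2 or without Lmo2Tg;p21-/- 1, 5 without p21-/- 1 and 11 without Lmo2Tg;p21-/- 2, where 18.2%, 16.4%, 22.5% and 26.8% of all genes were called.

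Loss of p21 without the transgene left no member past the test. By edgeR, DESeq2 and limma-voom alike 0 of 88 were called in p21-/- against WT, where edgeR called 0.11% of all genes. At an unadjusted p below 0.05 lay 387 of 11840 genes by edgeR, and 1 member by each tool. By edgeR this was Ndufb10, an accessory subunit of complex I, which had 71.9, 75.0 and 90.3 CPM in WT and 63.9 and 64.1 in p21-/- (-0.31 ± 0.10, adjusted p = 0.99 by edgeR). On the lower side lay 75 members, at a median of -0.07, but without WT 3 it was 35 at a median of 0.01, and with the length correction 51 at -0.01. The difference between the effect of p21 loss with and without the transgene was tested as an interaction. It called 0 of 88 members by edgeR, DESeq2 and limma-voom, with 7, 5 and 6 at an unadjusted p below 0.05, where edgeR called 1.06% of all genes. At that unadjusted level edgeR had 2155 of all 11840 genes, and for the other fits that share is not given. The median interaction was -0.09 with 67 negative, and without WT 3 it was -0.19, with 34 members at an unadjusted p below 0.05 and none called. With the length correction it was -0.12, with 24 at an unadjusted p below 0.05 and none called by edgeR. All 9 members of complex III were negative, at a median of -0.24.

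The subunits made in the mitochondrion were set beside the nuclear ones. Of 13 listed, 7 were tested, and mt-Co2, mt-Co3, mt-Atp6, mt-Atp8 and mt-Nd4l had a count of 0 in every library. Whether these transcripts were absent or their reads were left out in counting was not tested, so their levels are unknown. In Lmo2Tg against WT all 7 were positive with a median of 0.22, and mt-Nd4 (0.25 ± 0.08), mt-Nd5 (0.35 ± 0.11) and mt-Nd6 (0.36 ± 0.12) passed (adjusted p = 0.026, 0.031 and 0.041 by edgeR), while the nuclear members had a median of -0.09. The share called was 42.9%, near the 36.8% of all genes. In Lmo2Tg;p21-/- against Lmo2Tg all 7 were negative with a median of -0.32, and mt-Nd2 passed (-0.37 ± 0.09, adjusted p = 0.033 by edgeR), 14.3% against 6.73% of all genes. In Lmo2Tg;p21-/- against p21-/-, 6 of 7 were negative with a median of -0.13. There mt-Nd2 passed (-0.26 ± 0.09, adjusted p = 0.0495 by edgeR), 14.3% against 31.1% of all genes. In GFPhi against GFPlo none passed by edgeR, none at an unadjusted p below 0.05, and the median was -0.09. For mt-Nd6 the level was 17.7 to 24.1 CPM in the GFP table and 552 to 876 CPM in the genotype table. Whether reads were counted by strand is not given in the sources used here, so its level and its call are uncertain. Poly(A) capture precedes all of these counts, and its part in mitochondrial transcript levels was not tested.

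Enzymes that feed the chain were also counted. Of 18 genes of the tricarboxylic acid cycle and pyruvate dehydrogenase, 7 were lower and 0 higher in Lmo2Tg;p21-/- against p21-/- (38.9%, where 31.1% of all genes were called), at a median of -0.21, led by Suclg2 (-0.60) and Fh1 (-0.50), a succinyl-CoA ligase subunit and fumarase. Between Lmo2Tg and WT 3 were lower (Idh2, Fh1 and Suclg2) and 1 higher (Pdhb), 22.2% against 36.8% of all genes, and between Lmo2Tg;p21-/- and Lmo2Tg none was called by edgeR, with 3 at an unadjusted p below 0.05, although 17 of 18 were negative (median -0.14). In GFPhi, Pdhx (-0.36), a component of pyruvate dehydrogenase encoded on chromosome 2, was among the genes that were lower. Of 14 tested regulators of mitochondrial biogenesis, the mitochondrial DNA polymerase Polg was higher with the transgene both against WT (0.83 ± 0.09, adjusted p = 3.3e-05 by edgeR) and on the p21-/- background (1.02 ± 0.10, adjusted p = 1.8e-05). Against WT the other calls were lower, Tfb1m (-0.65) and Polrmt (-0.26), for 21.4% called against 36.8% of all genes. On the p21-/- background Esrra (0.48) and Gabpb1 (0.25) were higher and Tfb1m (-0.52) lower, for 28.6% against 31.1%, and in GFPhi Gabpb1 was lower (-0.48). Of 37 further assembly genes in the genotype table, 5 were lower and 0 higher in Lmo2Tg against WT, 13.5% against 36.8% of all genes (Cox15, Tmem70, Atpaf1, Bcs1l and Uqcc2), and none was called between Lmo2Tg;p21-/- and Lmo2Tg by edgeR, with 4 at an unadjusted p below 0.05. Of 38 in the GFP table, 2 were lower (Uqcc2 and Cox14) and 2 higher (Sdhaf2 and Tmem70) in GFPhi, 10.5% against 14.8% of all genes. Cytochrome c itself (Cycs) was not called in any comparison by edgeR, with 51.2 and 57.1 CPM in Lmo2Tg;p21-/- beside 58.7 and 73.0 in Lmo2Tg.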

How the data were processed

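Poly(A)-selected RNA of sorted DN3 thymocytes was sequenced, and the authors deposited raw gene counts without normalization, 1 table per experiment. The submitters' processing notes name STAR 2.4.2a, featureCounts, limma and mm10 (GRCm38), and whether counting used strand is not given in the sources used here. Of 16 labelled samples 15 have a column that was used. The 2 Lmo2Tg columns could be tied to the group only and are called libraries A and B, 1 column matches no sample and was not used, and 1 p21-/- sample was not analysed here. The members and gene lists were chosen with earlier results of these data known.

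Counts were filtered (filterByExpr, minimum count 10, minimum total 15), scaled by TMM and tested with the quasi-likelihood test of edgeR 4.0.16 (R 4.3.3) in 1 fit per table, with p-values adjusted by Benjamini-Hochberg over all genes tested and a call at an adjusted p below 0.05. CPM use the TMM-scaled totals. The p-values measure the spread between 2 or 3 libraries per group, which may in part be technical. Alternatives were DESeq2 1.42.0, limma-voom (limma 3.58.1), RLE size factors, other filters, an adjusted p below 0.01, a lowess correction for transcript length, fits on 2 groups only, a replicate block and each library left out. The procedure was tested on simulated counts. Positions and median transcript lengths came from GENCODE M21, which held 98.2% of the gene identifiers. Exonic 50-base stretches found in another gene or pseudogene mark uncertain levels: 13 members share 10% or more of theirs, and 32 overlap exons of another gene. The 13 include the called genes Ndufb9 (15.6%), Cox7a2l (13.8%), Ndufa12 (17.7%), Atp5o (14%), Cox7c (22.1%) and Uqcrb (25.4%). Promoters came from RefSeq.

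Named genes were those called with a mean of at least 1 CPM and no overlap between groups (at most 10 per direction), core subunits, isoform sets and members on chromosomes 2, 15 and 17. Cox6a2 belongs to an isoform set. Replicate numbers are not known to pair the libraries, and deviations of equally numbered GFP libraries correlated at 0.07, -0.08 and 0.10. The study describes the GFP sorts as 3 independent cohorts without saying that equal numbers mark one. Between equally numbered WT and p21-/- libraries the correlations were -0.24 and 0.30, and between p21-/- and Lmo2Tg;p21-/- libraries 0.05. Values with the replicate number as a block are given only among the alternatives. Some items are not reported here.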

Additional observations from a re-analysis of the deposited data

How the results depend on the processing

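None of the 35 named gene results changed direction under an alternative. The balance of higher and lower calls did change, as given above for GFPhi against GFPlo without GFPhi 3 and for Lmo2Tg against WT without WT 3. Counts of members called, by edgeR unless another tool is named, moved by more than 1.5 times as follows. In GFPhi against GFPlo, against 8, the count was 3 at an adjusted p below 0.01, 13 by DESeq2 (5 higher), 1 without the genes of chromosomes 2, 15 and 17, and 2 to 22 with 1 library left out. In Lmo2Tg;p21-/- against Lmo2Tg, against 4, it was 0 at an adjusted p below 0.01, 0 with the 2 groups alone and 0 to 2 with 1 library left out. In Lmo2Tg against WT, against 11, it was 2 at an adjusted p below 0.01, 17 with the length correction, 6 with the 2 groups alone and 3 to 11 with 1 library left out. In Lmo2Tg;p21-/- against p21-/-, against 17, it was 2 at an adjusted p below 0.01 and 1 to 11 with 1 library left out. Using the replicate number as a block gave 3 in GFPhi against GFPlo, 41 in Lmo2Tg;p21-/- against p21-/- (3 higher and 38 lower, with 42.9% of all genes called) and 0 in p21-/- against WT, and the numbers are not known to mark shared cohorts. Fits with fewer libraries have less power by construction, and the cause of the other shifts was not tested. Where no share of all genes stands beside a count, the count describes the setting and is not read as a result about the members.

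Of 458 alternative values for 35 named gene results, 299 kept the call, 159 lost it and 0 reversed. Cox4i2 and Cox6b2 (GFPhi against GFPlo) and Cox7c (Lmo2Tg against WT) kept it under every alternative that could be run for them, which for Cox4i2 excludes the filter at 10 CPM and the fit without chromosomes 2, 15 and 17. Cox4i2 passed the filter on low counts through the GFPlo libraries, where it is high, so its kept call is no independent support. The median of all members ranged with 1 library left out from 0.00 to 0.07 in GFPhi against GFPlo, from -0.24 to -0.12 in Lmo2Tg;p21-/- against Lmo2Tg, from -0.16 to -0.01 in Lmo2Tg against WT, from -0.21 to -0.14 in Lmo2Tg;p21-/- against p21-/-, from -0.11 to 0.01 in p21-/- against WT and from -0.19 to -0.05 for the interaction. With 2 or 3 libraries per group, most members moved by less than could be called, so a member that was not called is not shown to be equal.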

Other observations

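The 2 count tables differ several-fold in the level of some members. Over the 87 members tested in both, the median log2 ratio of the genotype to the GFP table was -0.01, beside -0.11 over 11252 genes. Yet 4 members had over 4-fold more CPM in the genotype table, and 2.37% of all genes did. Atp5g2 had 54.5 CPM on average there and 2.45 in the GFP table, Atp5g1 78.5 and 5.89, Atp5l 4.73 and 0.678, and Cox7c 73.3 and 15.2. These 4 genes share 38.3%, 10.2%, 7.6% and 22.1% of their 50-base stretches with other loci. Among the 13 members that share 10% or more, the median log2 ratio was 1.01, and among the other 74 it was -0.05. Atp5g3, which encodes the same c subunit of ATP synthase as Atp5g1 and Atp5g2 and shares none, had 237 to 302 CPM in the GFP table and 219 to 312 in the genotype table. The names of the tables carry different words for what may be the strand setting of the counting, which the sources used here do not explain. The tables also differ in mice, sort and depth, which cannot be told apart from counting, so levels of these genes were compared only within a table.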
